A study of Mus musculus with 4 samples.

Results

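Troponin is the calcium switch of striated muscle, and 8 genes that encode its subunits were examined in the ventricles of mice that overexpress the kinase gene Cdk8 in the heart. They are Tnni1, Tnni2 and Tnni3 for troponin I, Tnnt1, Tnnt2 and Tnnt3 for troponin T, and Tnnc1 and Tnnc2 for troponin C. All 8 were found by symbol, with 1 row each, among 23352 gene symbols in the table of transcript levels. Polyadenylated RNA was taken from the ventricles at postnatal day 21, and the mice were C57BL/6 males. The group called Cdk8Tg (2 libraries) overexpresses Cdk8 specifically in the heart, and the group called WT (2 libraries) is wild type. The sources used here name no promoter for the transgene and do not say whether each library holds a single animal. P-values therefore measure only the spread between these libraries, which may be technical.

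In the troponin complex, troponin C binds calcium, troponin I holds the actin filament in the relaxed state, and troponin T ties both to tropomyosin. Each striated muscle uses its own set of isoforms. The adult mouse heart uses Tnni3, Tnnt2 and Tnnc1, slow skeletal muscle uses Tnni1, Tnnt1 and Tnnc1, and fast skeletal muscle uses Tnni2, Tnnt3 and Tnnc2. Tnni1 is also the troponin I of the fetal heart and is replaced there by Tnni3 in the course of development. The N-terminal extension of the Tnni3 protein, which Tnni1 and Tnni2 lack, carries the sites that protein kinase A phosphorylates.

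Levels are FPKM, fragments per kilobase of transcript scaled to the depth of the library, so different genes may be compared within a library. Cdk8 itself, the targeted gene, checked the labels: Cdk8Tg replicates gave 7309 and 8122 FPKM, against 7.89 and 9.86 FPKM for the WT replicates. The libraries summed to 440324 to 510844 FPKM. Myl2, the ventricular myosin light chain that defines this tissue, was at 10760 to 15873 FPKM in all 4 libraries. Markers of embryonic or perinatal skeletal muscle summed to 0.083 to 0.526 FPKM, with Myod1 and Chrnd listed at 0 throughout. Atrial markers varied within groups: Myl7, an atrial myosin light chain, read 8.51 and 52.7 FPKM in Cdk8Tg replicates 1 and 2, and 136 and 11.6 FPKM in WT replicates 1 and 2. Of 6 fibroblast markers 4 rose (Col1a1, Col1a2, Tcf21 and Pdgfra, by 0.47 to 0.87), against 16.9% of all genes called as higher. The 6 summed to 918 and 1168 FPKM in Cdk8Tg and 777 and 714 in WT. Those 4 calls became 5 and 0 without Cdk8Tg replicate 1 or 2, and 2 and 0 without WT replicate 1 or 2. Of 5 endothelial markers limma called 0, with 0 at an unadjusted p under 0.05 and 1 call when Cdk8Tg replicate 1 was left out. The part of these cells in the changes described here was not tested. Each change given is the Cdk8Tg mean of log2(FPKM + 1) less the WT mean, and its SE is limma's. A change was called where limma's Benjamini-Hochberg adjusted p over all 11888 genes tested was under 0.05. Of these genes 24.9% were called, 16.9% as higher and 7.98% as lower, and their median change was 0.13. The share of calls depends strongly on the WT libraries, since leaving out WT replicate 1 or WT replicate 2 left 628 and 287 of 2958 calls, against 2380 and 1304 without Cdk8Tg replicate 1 or 2. With 3 libraries the fit has a single residual degree of freedom.

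The adult and fetal troponin I genes moved in opposite directions, and the adult heart isoforms of troponin I and T fell while that of troponin C was not called. Of the 8 genes, 6 had a mean of at least 1 FPKM and were tested. Tnni1 and Tnnt1 rose, Tnni3, Tnni2 and Tnnt2 fell, and Tnnc1 was not called, against 24.9% of all genes called. The other two, Tnnt3 and Tnnc2, were too low for a test. The median change of the 6 tested was -0.39. All 5 calls were also made after median-of-ratios scaling, after quantile normalization and with every library scaled to the same FPKM sum. The authors' own Cuffdiff calls in the authors' deposited table, which marks 14.0% of its tested genes, include 4 of the 6, namely Tnni1, Tnni2, Tnni3 and Tnnt1.

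**Figure D1:**
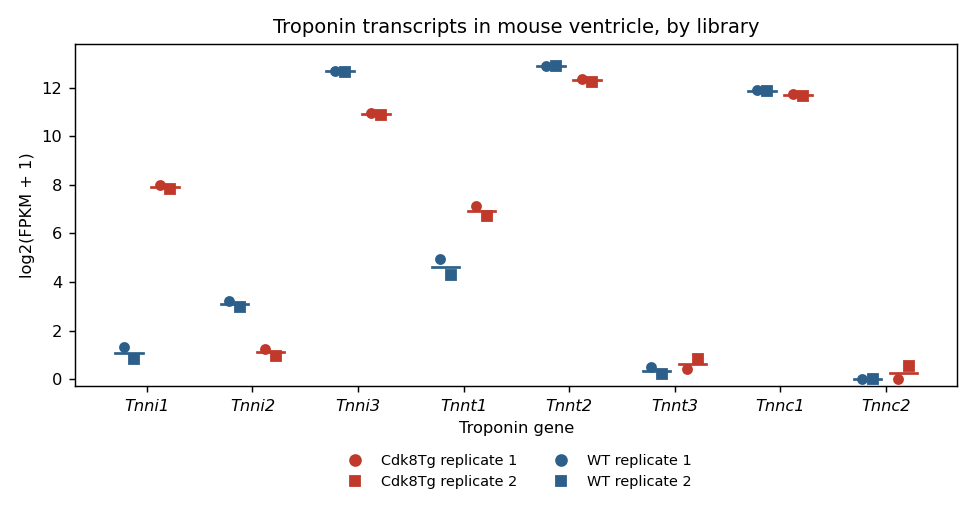
Levels of the 8 troponin genes as log2(FPKM + 1), with 1 point per library (circles replicate 1, squares replicate 2) and a bar at each group mean. The Cdk8Tg and WT points lie apart for Tnni1, Tnni2, Tnni3, Tnnt1, Tnnt2 and Tnnc1 and overlap for Tnnt3 and Tnnc2. Lying apart is weak evidence with 2 libraries per group, where an exact permutation test gives p = 0.333 at best. Tnnc1 lies apart but was not called, and the share of all genes lying apart was not counted.

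Among the troponin I genes, Tnni3 encodes the cardiac form. Cdk8Tg replicates gave 2016 and 1890.2 FPKM, against 6610.3 and 6487 FPKM for the WT replicates. Both Cdk8Tg libraries were far below both WT libraries, whereas replicates of a group lay close together. The group means differed 3.35-fold, and the log2 change was -1.75 ± 0.11 (limma SE, 95% interval -2.03 to -1.46, Benjamini-Hochberg adjusted p = 0.0029). Even so, Tnni3 stayed among the most abundant transcripts of the ventricle, ranking 16th of 23847 rows in both Cdk8Tg libraries against 7th in both WT libraries. Its call held under all 15 alternatives run, with adjusted p of 0.0008 to 0.048.

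Tnni1, the slow skeletal and fetal form, read 255 and 226 FPKM in Cdk8Tg against 1.51 and 0.789 in WT. It went from a transcript near the limit of detection to one of the 322 highest rows in each Cdk8Tg library. The WT values rest on about 23 and 12 fragments, as estimated from the steps between low FPKM values, so the fold is imprecise on the WT side. The ratio of the group means in FPKM was 209. On the log2(FPKM + 1) scale, which understates the change of a gene this low in WT, it was 6.83 ± 0.17 (limma SE, Benjamini-Hochberg adjusted p = 2.4e-04). On this scale only Cdk8 had a higher change among all genes tested. The rank of Tnni1 depends on the constant added before the logarithm and was not examined for other constants. Between 6.58 and 7.07 were obtained when each library was left out in turn, and the call held each time.

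Tnni2, the fast skeletal form, moved the other way from Tnni1. Its readings were 1.37 and 0.948 FPKM in Cdk8Tg against 8.41 and 6.76 in WT. The groups did not overlap, and every value was low next to Tnni3, with about 7.68 to 80.3 fragments behind it. Its log2 change was -1.99 ± 0.16 (limma SE and Benjamini-Hochberg adjusted p = 0.0038). Because the gene is low, the size depends on the constant added before the logarithm, with -2.62 for 0.1 and -1.03 for 5. Of the 11 markers of fast skeletal muscle, 9 had a mean under 1 FPKM, among them the fast myosins Myh1, Myh2 and Myh4 at 0.046 FPKM or less in all 4 libraries. The other two were higher: Myl1, a light chain gene, read 53.6 and 96.7 FPKM in Cdk8Tg against 50.1 and 42.5 in WT, and Mybpc2 read 5.49 and 10.7 FPKM against 7.36 and 6.63. Of these limma called 0, with 0 at an unadjusted p under 0.05. Both were called when Cdk8Tg replicate 1 was left out.

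The gain in Tnni1 was small beside the loss in Tnni3. Tnni1 rose by 239 FPKM between the group means and Tnni3 was lower by 4596 FPKM, so that the gain came to 5.2% of the loss. Summed over the 3 isoforms, troponin I was at 2272 and 2117 FPKM in Cdk8Tg, against 6620.2 and 6495 for WT. Isoform shares within a library do not depend on a scaling factor between libraries. The share of Tnni1 in troponin I was 11.2% and 10.7% in Cdk8Tg and 0.0229% and 0.0122% in WT. Tnni3 thus still made up 88.7% and 89.3% of troponin I transcripts in the Cdk8Tg libraries, against 99.9% in each WT library. The share of Tnni2 was lower too, at 0.0604% and 0.0448% against 0.127% and 0.104%. With 2 libraries per group an exact two-sided permutation test cannot go below p = 0.333, the value it gave for each of these shares and sums.

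**Figure D2:**
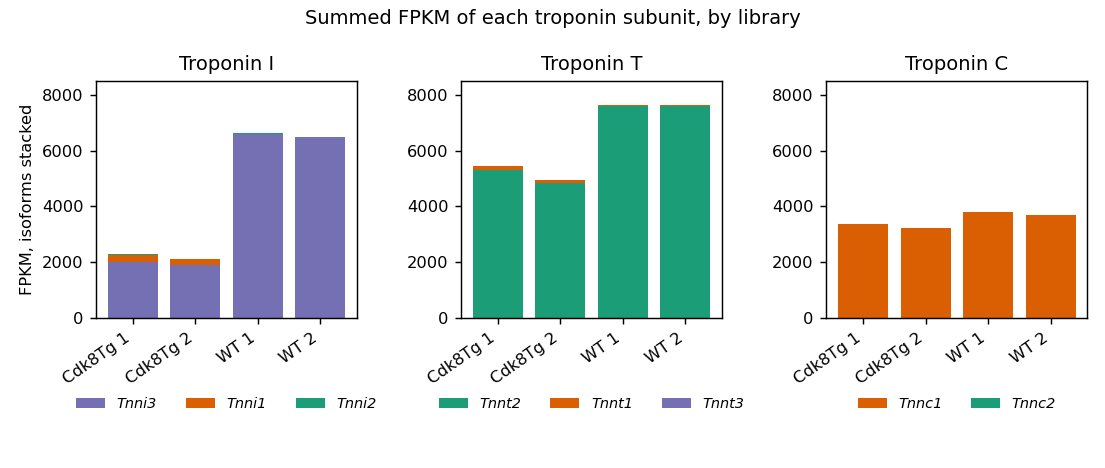
FPKM summed over the isoforms of troponin I, T and C in each library, with the isoforms stacked on a linear axis that starts at 0. Troponin I reaches 2117 and 2272 FPKM in the Cdk8Tg libraries and 6495 and 6620.2 FPKM in the WT libraries, and the segment of Tnni1 is seen only in Cdk8Tg.

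Among the troponin T genes, Tnnt2 encodes the cardiac form. Its levels were 5305 and 4848 FPKM in Cdk8Tg and 7617 and 7606 FPKM in WT. The WT libraries were nearly equal, and both Cdk8Tg libraries were below them. The log2 change was -0.59 ± 0.13 (limma SE, 95% interval -0.90 to -0.27, Benjamini-Hochberg adjusted p = 0.029). This is the least secure of the 5 calls. Leaving out WT replicate 1 or WT replicate 2 ended the call (limma adjusted p of 0.24 and 0.26), as did testing all genes whatever their level (0.24). With replicate number added to the model as a block, limma's adjusted p was 0.078. The authors' deposited table does not mark it either (q = 0.30). Quantile normalization reduced the size to -0.29 and kept the call.

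Tnnt1, the slow skeletal form, read 140.4 and 103 FPKM in Cdk8Tg against 29.5 and 18.7 in WT. The groups did not overlap, and replicates within each group spread more than for the cardiac isoforms. The group means differed 5.05-fold and the log2 change was 2.31 ± 0.24 (limma SE and Benjamini-Hochberg adjusted p = 0.0065). Unlike Tnni1, Tnnt1 was well above the detection limit in WT, at about 394 and 250 fragments. Its share in troponin T went from 0.386% and 0.245% in WT to 2.58% and 2.08% in Cdk8Tg. The gain of 97.6 FPKM was 3.85% of the 2535 FPKM by which Tnnt2 was lower. Both Tnnt1 and Tnni1 were higher in WT replicate 1 than in WT replicate 2. Atrial Myl7 and Sln (sarcolipin) were also higher there, at 136 and 43.8 FPKM against 11.6 and 2.08. In Cdk8Tg the order differed. Replicate 1 had the higher Tnnt1 and Tnni1 but the lower Myl7 and Sln, at 8.51 and 0.218 FPKM against 52.7 and 9.9. The part of atrial tissue in these spreads was not tested. The 9 atrial markers summed to 879 and 2438 FPKM in Cdk8Tg and to 692 and 241 FPKM in WT, with Bmp10 listed at 0 in all 4. Nppa made up most of each sum, at 780 and 2072 FPKM in Cdk8Tg and 395 and 199 in WT. The sums therefore mainly describe Nppa. Among 8 tested there were 1 rise (Nppa) and 1 fall (Stard10), against 24.9% of all genes called. With no filter on low values 0 atrial markers were called. The change of Tnnt1 was 2.62 without WT replicate 1 and 2.53 without Cdk8Tg replicate 2.

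Tnnt3, the fast skeletal form, was at 0.349 and 0.756 FPKM in Cdk8Tg and 0.407 and 0.159 FPKM in WT. The groups overlapped, and about 2.09 to 8.38 fragments lay behind each value. Without the filter on low values its change was 0.27 ± 0.18 (limma SE and Benjamini-Hochberg adjusted p = 0.39). A difference in Tnnt3 was therefore not detectable at this depth.

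Troponin C held most closely to its WT level. Tnnc1, the form shared by heart and slow muscle, read 3375 and 3208 FPKM in Cdk8Tg against 3783 and 3693 in WT. The Cdk8Tg libraries were lower without overlap, but by little. The change was -0.18 ± 0.11 (limma SE, 95% interval -0.47 to 0.10, Benjamini-Hochberg adjusted p = 0.27), an interval that includes 0 and leaves out the change of Tnni3. Its sign depended on scaling, with 0.01 at an equal FPKM sum and 0.21 after quantile normalization, neither of them called. Tnnc2, the fast skeletal form, was listed at 0 in Cdk8Tg replicate 1 and in both WT libraries and at 0.451 FPKM in Cdk8Tg replicate 2, which corresponds to about 3.27 fragments. It also overlaps Ube2c on the opposite strand in the annotation, and 59.0% of its 31-base stretches occur there, so this value is uncertain.

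Ratios between subunits within a library describe the unequal change. For each troponin C transcript the WT ventricles held 1.75 and 1.76 troponin I transcripts, in FPKM, and the Cdk8Tg ventricles 0.673 and 0.660. Troponin T per troponin C went from 2.02 and 2.06 to 1.61 and 1.54. The ratio of troponin I to troponin T was 0.866 and 0.852 in WT and 0.417 and 0.427 in Cdk8Tg. In each of the 3 ratios both Cdk8Tg libraries were below both WT libraries by more than the distance between replicates. The exact two-sided permutation test gave p = 0.333 for each ratio, the lowest it can give with 2 libraries per group. The 8 genes together took 3.53% and 3.50% of the FPKM sum in WT and 2.47% and 2.33% in Cdk8Tg. In such bulk samples fewer cardiac muscle cells and less RNA per cell cannot be told apart. Of 9 cardiac muscle markers 5 fell, against 7.98% of all genes called as lower. Among them Ttn (titin) fell by 0.87 and Myl3 by 0.66 on the log2 scale. Limma called 0 of the 9 as higher (1 at an unadjusted p under 0.05), with a list median of -0.57. The balance depends on scaling, with 0 rises and 6 falls after median-of-ratios scaling, 1 and 3 at an equal FPKM sum, and 2 and 1 after quantile normalization. The 5 calls became 1 without WT replicate 1 and 0 without WT replicate 2. Within that list, Mybpc3 (cardiac myosin-binding protein C) and Actc1 (cardiac actin) were not called, at 0.24 and -0.19.

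**Figure D3:**
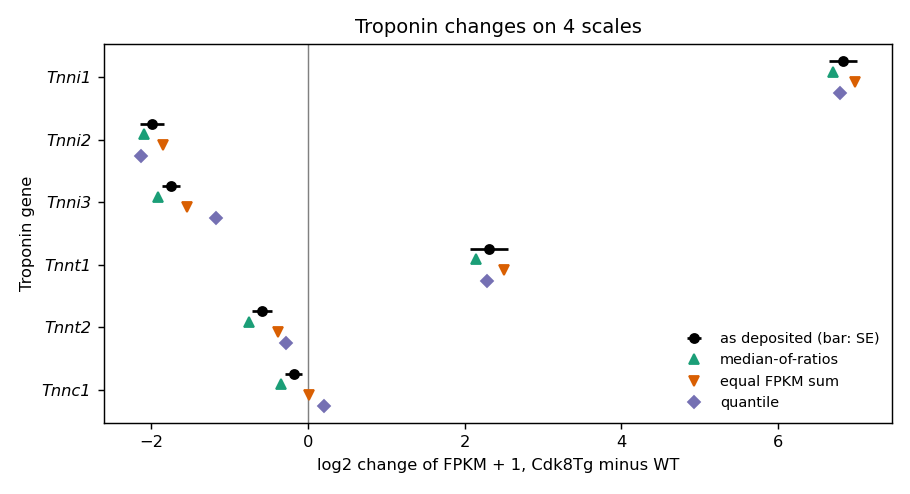
Log2 change of the 6 tested troponin genes (Cdk8Tg minus WT) on the deposited scale, with a bar for the SE, and on 3 other scales. Tnni1 and Tnnt1 lie right of 0 and Tnni2, Tnni3 and Tnnt2 left of 0 on each scale, and Tnnc1 changes side.

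Troponin I and T genes sit in pairs on the chromosomes, and in both pairs that could be tested the members went opposite ways. Tnni1 lies at 135799421 to 135810989 on chromosome 1 of mm10, and Tnnt2, 25344 bases further on the same strand, at 135836334 to 135852268. Tnni1 had the highest change of log2(FPKM + 1) after Cdk8 among the genes tested, and Tnnt2 fell. The call of Tnnt2 is the least secure among the troponin genes and is not made in the authors' deposited table. The second pair is closer still. Tnni3 (chromosome 7, 4518308 to 4522443, minus strand) ends 2332 bases before the start of Tnnt1 (4504663 to 4515975, minus strand), and here the troponin I gene fell and the troponin T gene rose. The third pair, not compared because Tnnt3 was too low for a test, is Tnni2 (chromosome 7, 142442468 to 142444405, plus strand) and Tnnt3, whose locus the authors' deposited table merges with that of Lsp1. Tnnc1 lies on chromosome 14 at 31208312 to 31211711 and Tnnc2 on chromosome 2 at 164777162 to 164779734.

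Promoters of the first and second pair are printed because within each of them the genes went opposite ways. RefSeq (GRCm38.p6) lists promoters for 6 of the 8 genes, all but Tnni2 and Tnnt3. The 250 bases before the transcription start are given 5′ to 3′ on the strand of the gene. Capitals mark matches on either strand to any of 6 motifs: the E-box CANNTG bound by basic helix-loop-helix factors, the GATA motif (AGATAA, where the first letter may also be T and the last G), the M-CAT motif CATTCC bound by TEAD factors, TATAAA, the MEF2 motif and the CArG box of SRF. No capitals of different motifs overlap.
Tnni1 (chr1:135799171-135799420, plus strand): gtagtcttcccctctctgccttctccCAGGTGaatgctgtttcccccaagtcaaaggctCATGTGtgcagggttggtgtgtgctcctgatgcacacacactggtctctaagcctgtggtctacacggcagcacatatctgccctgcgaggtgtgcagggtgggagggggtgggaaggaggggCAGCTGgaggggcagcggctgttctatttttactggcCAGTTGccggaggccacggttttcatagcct
Tnnt2 (chr1:135836084-135836333, plus strand): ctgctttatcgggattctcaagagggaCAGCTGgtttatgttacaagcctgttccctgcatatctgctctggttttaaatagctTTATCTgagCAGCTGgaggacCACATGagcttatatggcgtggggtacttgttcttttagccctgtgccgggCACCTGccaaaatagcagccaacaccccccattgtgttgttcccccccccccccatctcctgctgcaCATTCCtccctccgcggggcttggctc
Tnni3 (chr7:4522529-4522778, minus strand): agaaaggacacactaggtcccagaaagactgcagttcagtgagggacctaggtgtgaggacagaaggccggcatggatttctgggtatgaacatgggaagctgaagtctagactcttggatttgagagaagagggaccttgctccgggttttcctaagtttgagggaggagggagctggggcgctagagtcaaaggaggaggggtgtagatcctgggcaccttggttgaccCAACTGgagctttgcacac
Tnnt1 (chr7:4515976-4516225, minus strand): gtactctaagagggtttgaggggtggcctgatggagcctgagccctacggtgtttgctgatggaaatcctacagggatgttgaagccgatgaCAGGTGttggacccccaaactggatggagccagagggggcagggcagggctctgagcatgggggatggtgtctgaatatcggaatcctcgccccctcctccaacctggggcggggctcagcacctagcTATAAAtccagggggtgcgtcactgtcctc

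The Tnni1 window holds 4 E-boxes and the Tnnt2 window 4, with a GATA motif and an M-CAT motif in Tnnt2 besides. Tnni3 has a single E-box, at -19 to -14 from the RefSeq start, which lies 85 bases from the start of the gene in the authors' deposited table. Tnnt1 has an E-box at -158 to -153 and TATAAA at -30 to -25. An E-box is common, present in 66.2% of 32851 RefSeq promoter windows of this length, while TATAAA is in 12.4%, M-CAT in 12.6% and GATA in 26.5%. An exact match to this MEF2 motif or CArG box, found in 0.508% and 1.47% of windows, was in none of the 4. Such matches describe the letters and show no binding.

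Within 100 kb of the troponin genes lie 44 other genes, of which 29 were tested, 6 rose and 8 fell. The shares among all genes tested were 16.9% called as higher and 7.98% as lower. Calls at each locus were few, with 2 rises and 3 falls around Tnnc1 and 1 rise and 1 fall around Tnnc2. Around Tnni2 and Tnnt3 the calls were falls, around Tnni1 and Tnnt2 the calls of other genes were rises, and next to Tnni3 and Tnnt1 there were calls both ways. Those calls numbered 10 and 9 without Cdk8Tg replicate 1 or 2 and 5 and 3 without WT replicate 1 or 2. Next to Tnni1, Phlda3 (a p53 target that inhibits Akt) rose by 2.21 and Csrp1 (a LIM protein of smooth muscle) by 1.11, while Lad1, between Tnni1 and Tnnt2, was not called at 0.05. Next to Tnni3, Dnaaf3 (an assembly factor of ciliary dynein) had a log2 change of -1.30. Exons annotated to Dnaaf3 and Tnni3 overlap on the same strand, so the value of Dnaaf3 is uncertain. On the far side of Tnnt1, Ppp1r12c rose by 0.37. Around Tnni2, Mrpl23, a mitochondrial ribosomal protein gene, had a change of -1.10, Gm14492 of -1.39 and Lsp1 of -0.34. Gm14492 and Lsp1 share a locus with Tnnt3 in the authors' deposited table, so their falls are not at separate loci. Ctsd (cathepsin D) was not called there, at 0.22.

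**Figure D4:**
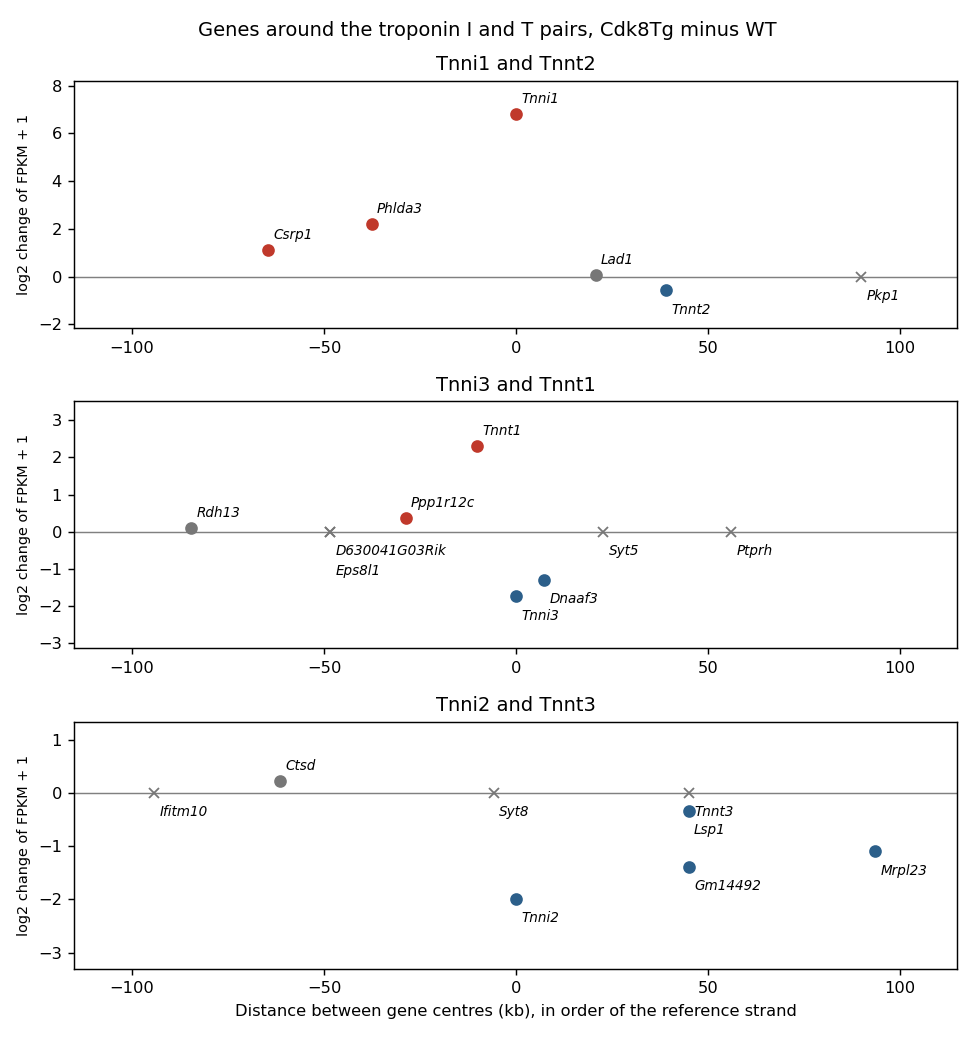
Log2 change (Cdk8Tg minus WT) of genes within 100 kb of Tnni1, Tnni3 and Tnni2, against the distance between gene centres in kb. Red points rose, blue points fell, grey points were not called and crosses were not tested. Genes that share a locus in the authors' table share a position, and Tnni1 with Tnnt2 and Tnni3 with Tnnt1 lie on opposite sides of 0.

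Transcripts of the thin filament proteins that troponin sits on or next to went both ways. Of 18 tested partners 3 rose and 3 fell, with a median of 0.13, against 24.9% of all genes called. At an equal FPKM sum 7 rose and 2 fell, and after quantile normalization 5 and 2. Tpm2, beta-tropomyosin, rose by 3.45 and Acta1, skeletal alpha-actin, by 3.11, and the nebulin-like Nebl rose by 0.47. The falls were Tpm1, alpha-tropomyosin, the main tropomyosin of the ventricle, at -0.81, the leiomodin gene Lmod2 at -0.60, and Tmod4, a tropomodulin of skeletal muscle, at -2.30. Tpm1 read 7005 and 6778 FPKM in Cdk8Tg against 12046 and 12102 in WT. Tpm2 read 78.3 and 101 FPKM against 7.30 and 7.18. As with troponin I, the isoform that gained stayed far below the one that fell. Tropomodulin 1 (Tmod1) and the capping protein genes Capza2 and Capzb were not called, at -0.15, 0.05 and 0.12. The 6 calls became 7 and 6 without Cdk8Tg replicate 1 or 2, 3 without WT replicate 1 and 3 without WT replicate 2.

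Of a list of slow and fast skeletal muscle genes, 22 in all, 10 were high enough for the test. The share called among all genes tested was 24.9%. Myh7 (slow beta-myosin) and Myh7b rose by 2.65 and 0.40, and Casq1 (skeletal calsequestrin), Myoz2 (calsarcin 1) and Myl3 changed by -2.60, -1.08 and -0.66. Thus 2 rose and 3 fell (1 and 5 after median-of-ratios scaling), with a median of -0.11, and the calls numbered 7 and 5 without Cdk8Tg replicate 1 or 2, 3 without WT replicate 1 and 1 without WT replicate 2. Myl3, a light chain gene that the ventricle shares with slow muscle, thus fell where Tnni1 and Tnnt1 rose, and its companion Myl2 had a similar change that missed the threshold, at -0.51 (limma adjusted p = 0.0504). Mybpc1, the slow form of myosin-binding protein C, was at 0.070 FPKM or less in all 4 libraries.

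Kinases that phosphorylate troponin were tested as a list of 20 genes with phosphatases and kinase A subunits. Of 18 tested, limma called 6 as higher and 0 as lower (7 and 1 at an unadjusted p under 0.05), against 16.9% of all genes called as higher, with a median of 0.09. Prkcd (protein kinase C delta) rose by 1.85, from 4.67 and 4.31 FPKM in WT to 17.1 and 20.5 in Cdk8Tg. Prkar1a (a regulatory subunit of protein kinase A), Prkca (protein kinase C alpha), Prkg1 (cGMP-dependent kinase), Prkacb and Stk4 rose by 0.76, 0.59, 0.56, 0.45 and 0.38. Prkaca, the main catalytic subunit of protein kinase A, and Tnni3k, a cardiac kinase that binds Tnni3, were not called, at -0.03 and -0.06. None of the phosphatase genes Ppp1ca, Ppp1cb, Ppp1cc, Ppp2ca and Ppp2cb was called. After median-of-ratios scaling 3 rose and 1 fell. The count of calls was 3 and 2 without Cdk8Tg replicate 1 or 2 and 1 without either WT library.

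Of 24 tested transcription factors known from troponin promoters, 5 rose and 1 fell, with a median of 0.17. That share is near the 24.9% of all genes called and is no result about these factors. Gata4, a zinc finger factor of the heart, rose by 0.79, Nfatc2 by 0.58, Hand2 by 0.53, Six4 by 0.53 and Myocd (myocardin, a coactivator of SRF) by 0.38, and the T-box factor Tbx5 had a change of -0.45. Mef2c, Srf and Sox6, a repressor of slow fibre genes, were not called, at 0.20, 0.30 and -0.21. The thyroid hormone receptor genes Thra and Thrb were not called either, at -0.07 and -0.17. This count is unstable: 2 rose and 1 fell after median-of-ratios scaling, 12 rose and 0 fell at an equal FPKM sum, and the calls numbered 3 and 2 without Cdk8Tg replicate 1 or 2 and 1 and 0 without WT replicate 1 or 2.

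**Figure D5:**
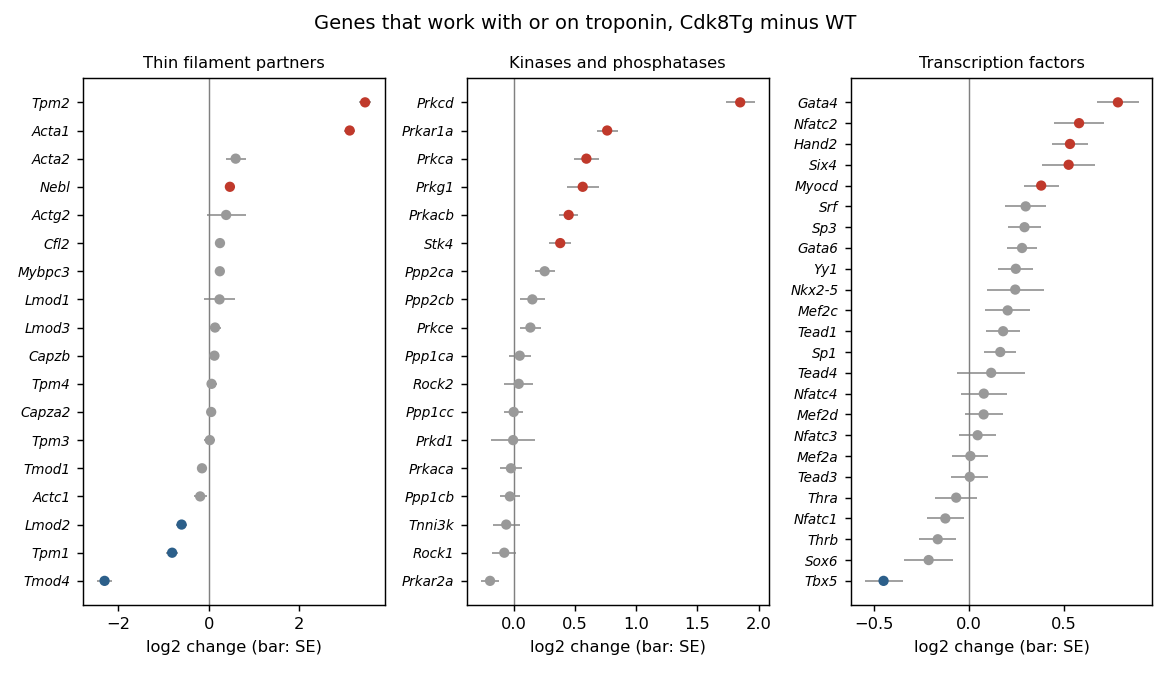
Log2 change (Cdk8Tg minus WT, bars SE) of the tested thin filament partners, of kinases and phosphatases acting on troponin, and of transcription factors, on separate axes. Red points rose, blue points fell and grey points were not called. Tpm2 and Acta1 stand above 3, and most transcription factors lie between -0.2 and 0.3.

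Splicing factors of troponin T pre-mRNA went both ways. Of 10 tested, 3 rose and 1 fell (2 and 2 after median-of-ratios scaling), with a median of 0.05, against 24.9% of all genes called. Rbfox1 read 3.39 and 2.56 FPKM in Cdk8Tg against 10.7 and 10.1 in WT, a change of -1.53, while its paralog Rbfox2 rose by 0.67, Ptbp2 by 0.57 and Celf1 by 0.44. Mbnl1 and Mbnl2 (muscleblind), Celf2 and Ptbp1 were not called. The calls numbered 3 and 3 without Cdk8Tg replicate 1 or 2, 2 without WT replicate 1 and 1 without WT replicate 2. Splice forms of Tnnt2 cannot be read from values per gene.

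The genes whose 4-library profile was most like that of a troponin gene were found by the Euclidean distance between centred log2(FPKM + 1) values, among 11029 other genes. For Tnni1 these were Ppp2r2b (a phosphatase subunit), Cnn1 (calponin 1, of smooth muscle), Cdk8 itself, Tpm2 and Myl9, at distances of 1.64 to 3.70. The nearest, Ppp2r2b, changed by 5.24 against 6.83 for Tnni1. Ppp2r2b read 34.6 and 41.9 FPKM in Cdk8Tg against 0.0733 and 0 in WT. The constant added before the logarithm therefore limits its change, and these sizes do not rank the genes by fold. Of 6 smooth muscle markers, Cnn1 rose by 4.65, Smtn had a change of -0.43 and Acta2, Myh11, Tagln and Mylk were not called, at 0.59, 0.33, 0.65 and -0.03. Without Cdk8Tg replicate 1 the 2 calls in that list became 5, and without each of the other 3 libraries they became 1. For Tnni3 they were Angpt1 (angiopoietin 1), Dusp18, Lpl (lipoprotein lipase), Tcap (telethonin, a Z-disc protein) and Hhatl, at distances of 0.0553 to 0.184. Their log2 changes were between -1.66 and -1.78. With only 4 libraries in 2 groups, the distance mostly reflects the size of the difference between the groups.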

How the data were processed

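Polyadenylated RNA of 4 libraries was sequenced from stranded TruSeq preparations, per the labels' protocols. Per the submitters' processing notes, the authors used TopHat 1.0.0 (mm10), Cufflinks and Cuffdiff. The deposited tables give FPKM per gene and library, and FPKM per group with Cuffdiff's p-value and q-value. The annotation, the strand setting and the scaling between libraries were not given in the sources used here. Limma 3.58.1 (R 4.3.3, trended empirical Bayes, 2 residual degrees of freedom) was fitted on log2(FPKM + 1) over 11888 rows with a mean of at least 1 FPKM, with Benjamini-Hochberg adjustment over all of them. On simulated data of 11888 genes it recovered 74.0%, 96.0%, 100% and 100% of changes of 0.5, 1, 2 and 4 on the log2 scale. There were 12 false calls among 197. The simulation changed 50 genes at each size, with independent noise and no shift between libraries. Far more genes were called in the real data, so these rates need not hold there. Fragments were estimated from steps between low FPKM values (0.0677 to 0.0800 FPKM per fragment and kilobase). Positions are the authors' loci, with GENCODE M21 for annotation. From each list, called genes were named (the 3 largest each way beyond 6), with neighbours within 100 kb and the 5 nearest profiles. Other genes were named after their values were seen. The members and lists were chosen with earlier results of these data known. Alternatives covered pseudocount, filter, scaling, variance model, block and each library left out.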

Additional observations from a re-analysis of the deposited data

How the results depend on the processing

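The calls of Tnni1, Tnni3 and Tnnt1 held under all 15 alternatives and that of Tnni2 under all 14 in which it was tested, since a minimum of 5 FPKM removes it. Tnnt2 lost its call with no filter on low values (-0.586, limma adjusted p = 0.24), in the authors' calls (-0.725, q = 0.30) and without either WT library (over all libraries left out in turn, -0.651 to -0.521). The labels do not say that replicate numbers pair the libraries. The correlation of deviations between same-numbered libraries was -0.0256 over 11888 genes, which with 2 libraries per group cannot exclude pairing. With the replicate block Tnnt2 was at -0.586 (adjusted p = 0.078) and 2825 genes were called, against 2958. The uncalled change of Tnnc1 reversed with quantile normalization (0.206) and an equal FPKM sum (0.0135). The number of genes called was 1055 with no filter, 5552 at an equal sum, 1730 in the authors' calls and 287 to 2380 with a library left out. Rises made up 67.9% of calls as deposited, 38.4% after median-of-ratios scaling (median -0.01), 49.3% after quantile normalization and 88.2% at an equal sum (median 0.30). The Cdk8Tg to WT ratio of summed FPKM was 0.335 for troponin I, 0.681 for troponin T and 0.881 for troponin C. It became 0.299, 0.609 and 0.787 with median-of-ratios scaling, 0.384, 0.780 and 1.01 at an equal sum, and 0.487, 0.835 and 1.16 with quantile normalization. Quantile normalization put the gain in share at 9.38 percentage points for Tnni1 (10.9 as deposited) and 1.70 for Tnnt1 (2.01). Over 15 gene lists and sets, counts of calls stayed within 1.5 times in 149 of 210 alternatives, fell in 54 and rose in 7. Few fragments limit Tnni1 in WT, Tnni2, Tnnt3 and Tnnc2.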
